A study of Homo sapiens with 36 samples.

Results

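The Mir-19 and Mir-92 families are the microRNAs (miRNAs) made from the 3p arms of the polycistronic Mir-17 to Mir-92 clusters and from the related gene MIR92B. Members were chosen by name, as the rows of the deposited table of mature miRNAs that begin with Hsa-Mir-19- or Hsa-Mir-92- and carry no asterisk, the mark of a passenger strand. This gave 7 rows, which hold 6 distinct sets of values among the 124 distinct sets of values in 135 rows. The rows Hsa-Mir-19-P2a_3p and Hsa-Mir-19-P2c_3p had the same value in all 36 libraries and were counted once. Small RNA was sequenced from HEK293T, a human embryonic kidney cell line, in 12 conditions with 3 replicates each. Cells were transfected with Flag/HA-tagged WT-AGO2, with 1 of the variants F182del, N359H, G604R or D619N, or with the Flag/HA-empty vector. A plasmid for a green fluorescent protein was transfected together with the AGO2 constructs. From each lysate a sample was kept as input, and the rest was precipitated with an anti-HA antibody (IP), so IP and input libraries of a construct with the same replicate number come from 1 culture. The cells were not the AGO2-deleted derivative that the study used for other assays, so input libraries also hold miRNAs bound to the cells' own Argonaute proteins, and the promoter of the vectors is not given in the sources used here. Only miRNAs were listed, so neither the AGO2 constructs nor markers of the cell line could be checked in these values.

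AGO2 is an Argonaute protein, the core of the silencing complex. It holds 1 strand of a miRNA duplex, the guide, and uses its bases 2 to 8, the seed, to find target mRNAs, while the other strand, the passenger, is usually discarded. The clusters are known from cancer and development: miR-19 is a main oncogenic part of the cluster, and miR-92a and miR-25 are known to repress BCL2L11, a promoter of cell death. All miRNAs of a cluster are cut from 1 primary transcript, but the amount of each mature miRNA also depends on processing and on decay.

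The mature sequences are shown because members differ by only a few bases outside a shared seed, so short reads must tell them apart by those bases. They come from RefSeq (GRCh38.p14), and all 7 rows were matched. The table holds no sequences, so the pairing of its MirGeneDB names with these genes rests on the naming rules of that database and was not checked against reads. Seeds are in capitals.
miR-19a: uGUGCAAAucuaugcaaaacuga
miR-19b: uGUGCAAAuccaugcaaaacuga
miR-92a: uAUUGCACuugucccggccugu
miR-25: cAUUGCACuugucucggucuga
miR-92b: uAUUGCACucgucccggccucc

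The Mir-92 seed AUUGCAC occurs in 6 of 2370 mature human miRNAs in that collection, and the Mir-19 seed GUGCAAA in 2 of 2370. Counted from 1 at the 5′ end, miR-92b differs from miR-92a by U10C, G21C and U22C, and miR-25 differs from miR-92a by U1C, C14U, C18U and U22A. Between miR-25 and miR-92b there are 6 differences. miR-19a differs from miR-19b by C11U alone.

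MIR19A (Hsa-Mir-19-P1a_3p) lies at chr13:91350939-91350961, MIR19B1 (Hsa-Mir-19-P2a_3p) at chr13:91351245-91351267 and MIR92A1 (Hsa-Mir-92-P1a_3p) at chr13:91351361-91351382, on the plus strand and within an exon of the non-coding host gene MIR17HG. The second copies, MIR19B2 (Hsa-Mir-19-P2c_3p) at chrX:134169683-134169705 and MIR92A2 (Hsa-Mir-92-P1c_3p) at chrX:134169544-134169565, lie on the minus strand within an exon of the non-coding AC002407.1. MIR25 (Hsa-Mir-92-P1d_3p) lies at chr7:100093571-100093592 on the minus strand, inside MCM7, a gene for a DNA replication helicase subunit, and outside its exons. MIR92B (Hsa-Mir-92-P2d_3p) lies at chr1:155195237-155195258 on the plus strand within an exon of AC234582.1, an antisense transcript.

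The second row for miR-92a, Hsa-Mir-92-P1c_3p, shares its mature sequence and held 225 fewer of the 4824 reads of Hsa-Mir-92-P1a_3p in the 15 input libraries of AGO2 constructs, and 229 fewer of 14046 in the 15 IP libraries. The 2 rows are therefore not separate evidence, and miR-92a below is Hsa-Mir-92-P1a_3p. Whether reads were split between the 2 rows or counted in both is not described. Shares of miR-92a and ratios to it are therefore those of this row alone, and the shares may understate miR-92a. Family sums leave the second row out.

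Depth set what could be seen. Total reads were 16636 to 754009 in the 15 IP libraries of AGO2 constructs and 9395 to 4162450 in their inputs, of which 1114 to 29943 and 423 to 11574 were mature miRNA reads. Among the inputs, replicate 1 of G604R (9395 reads), of D619N (17118) and of N359H (148205) were shallow. IP libraries of the empty vector held 171 to 197 mature miRNA reads each. Levels are given as the share of mature miRNA reads of the library, with identical rows counted once and with both rows for miR-92a in the total. Reads of a small RNA library are not independent molecules, so intervals and limits cover counting error only. Nothing states that replicates were separate transfections on separate days, so p-values measure the spread between these samples, which may be technical.

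miR-92a was by far the most abundant member in every condition. It took 16.4%, 13.2% and 11.3% of mature miRNA reads in the WT-AGO2 IP (13.6% ± 2.58, SD, n = 3) and 7.29%, 9.36% and 10.05% in the WT-AGO2 input (8.90% ± 1.43). Its rank among the 124 rows with identical rows counted once was 1 to 4 in all 36 libraries. miR-25 came next, with 4.59%, 3.71% and 3.33% in the WT-AGO2 IP (3.87% ± 0.643) and 4.75%, 3.08% and 2.49% in the input (3.44% ± 1.17). miR-92b took 1.53%, 1.49% and 1.26% in the WT-AGO2 IP (1.43% ± 0.147) and 1.83%, 1.76% and 1.02% in the input (1.54% ± 0.452). In both fractions the 3 members kept this order in every WT-AGO2 library, with no overlap between neighbours. The Mir-92 family as a whole (without the second miR-92a row) made up 18.9% ± 3.35 of mature miRNA reads in the WT-AGO2 IP and 13.9% ± 0.326 in the input. With the second row included, these were 32.4% ± 5.94 and 22.3% ± 1.30.

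The Mir-19 members were near the limit of detection, although they come from the same primary transcripts as miR-92a. miR-19b had 7, 3 and 6 reads in the WT-AGO2 IP and 5, 1 and 1 in the input, and miR-19a had 6, 0 and 0 reads in the IP and 8, 3 and 0 in the input. The order of miR-19a and miR-19b could not be set at this depth. Over all 36 libraries miR-19a did not exceed 19 reads and miR-19b did not exceed 16.

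**Figure D1:**
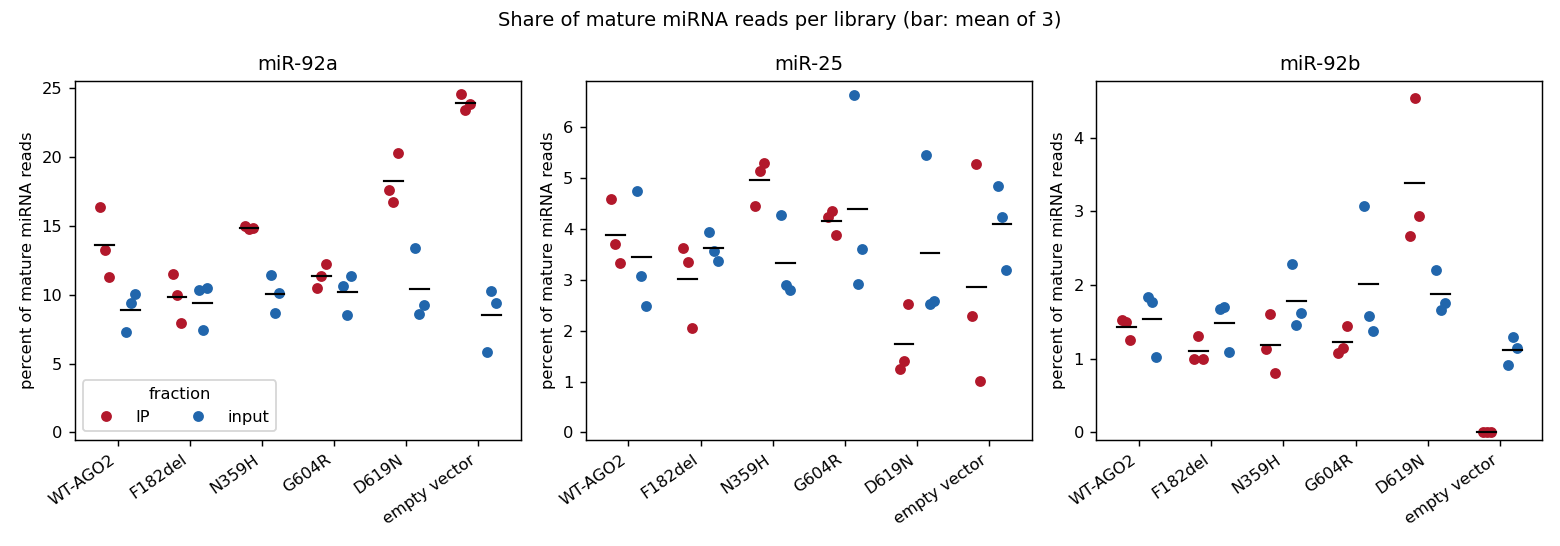
Share of mature miRNA reads (percent) of miR-92a, miR-25 and miR-92b in each of the 36 libraries, by construct, with IP in red and input in blue; points are libraries and bars are means of 3. In the D619N IP, miR-25 sits at 1.26% to 2.53% and miR-92b at 2.66% to 4.54%, apart from the WT-AGO2 IP libraries, while the input points overlap.

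The main question was whether the variants bind these miRNAs differently from WT-AGO2. In the D619N IP the balance within the Mir-92 family was changed: miR-25 was lower and miR-92b was higher than in the WT-AGO2 IP. miR-25 took 1.26%, 1.41% and 2.53% of mature miRNA reads (1.73% ± 0.694), and each of these libraries lay below all 3 WT-AGO2 IP libraries. miR-92b took 2.66%, 4.54% and 2.94% (3.38% ± 1.01), and each of these lay above all 3. miR-92a took 17.6%, 16.8% and 20.3% (18.2% ± 1.86), also without overlap.

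Fold changes were tested with limma on log2 of scaled RPM plus 1, where RPM is reads scaled to a common library total and scaling sets the median ratio between libraries to 1, with Benjamini-Hochberg adjustment over all rows tested. Calls required both an adjusted p under 0.05 and a log2 fold change beyond 1 in either direction. In D619N against WT-AGO2 in IP, 2 of the 5 members tested were called, 1 in each direction, beside 18 of 123 rows in all (14.6%). miR-25 was 2.27-fold lower (log2 fold change -1.18, SE 0.25, adjusted p = 0.0209), and miR-92b was 2.38-fold higher (log2 fold change 1.25, SE 0.24, adjusted p = 0.0141). miR-92a differed by a log2 fold change of 0.47 (SE 0.19, adjusted p = 0.128) and was not called. The groups did not overlap for 4 of these 5 members, against 46 of 123 rows (37.4%). With miR-92a counted once, the groups did not overlap for 3 of 4 members. The median log2 fold change was 0.46 over the 5 members and 0.26 over the 4. That of the 123 rows was -1.18, the value of miR-25 itself, and 65 of the 123 rows were at 0 in at least 1 library. The 58 rows above 0 in all 6 libraries had a median of 0.03. Without replicate 1 of the WT-AGO2 IP, neither member was called (adjusted p = 0.067 for both), and miR-25 was not called without replicate 1 (adjusted p = 0.0556) or replicate 2 (adjusted p = 0.0541) of the D619N IP. On RPM as deposited, with no scaling, the adjusted p was 0.79 for miR-25 and 0.274 for miR-92b.

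**Figure D2:**
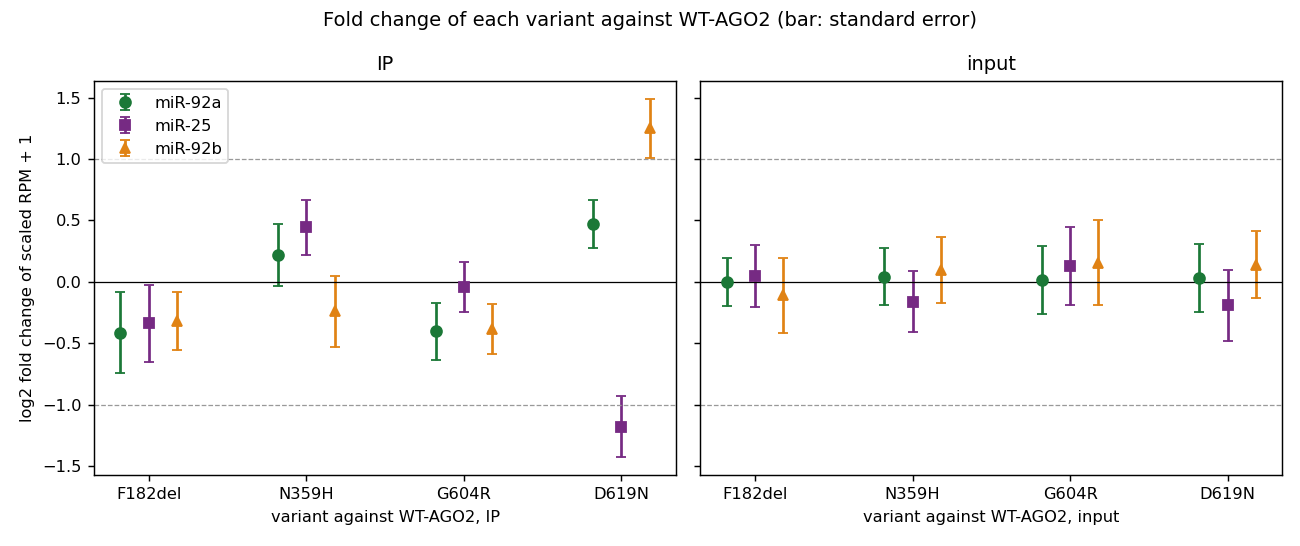
Log2 fold change of scaled RPM plus 1 of each variant against WT-AGO2, in IP (left) and input (right), for miR-92a, miR-25 and miR-92b; bars are standard errors and dashed lines mark a log2 fold change of 1 in either direction. In IP, D619N has miR-25 at -1.18 and miR-92b at 1.25, and in input all points lie between -0.19 and 0.15.

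The ratio of 2 members within a library does not depend on scaling or on the other rows. There were 2.998, 2.48 and 2.65 reads of miR-25 per read of miR-92b in the WT-AGO2 IP, and 0.472, 0.31 and 0.86 in the D619N IP. miR-25 outnumbered miR-92b in all 12 IP libraries of WT-AGO2, F182del, N359H and G604R, at 2.04 to 6.56 reads per read, and was outnumbered by it in all 3 libraries of D619N. In reads, these 3 libraries held 84, 36 and 49 of miR-25 and 178, 116 and 57 of miR-92b. Against miR-92a, miR-25 stood at 0.0713 to 0.124 in the D619N IP and at 0.257 to 0.403 in the other 12 libraries, and miR-92b at 0.145 to 0.271 against 0.0545 to 0.131. None of the 3 ratios overlapped between D619N and the other AGO2 constructs in IP, and all 3 overlapped in input. The empty vector IP, which has no tagged AGO2, is not among these. Its miR-25 stood at 0.093, 0.225 and 0.0426 against miR-92a, on 4, 9 and 2 reads of miR-25, and overlapped the D619N IP. It held 0 reads of miR-92b. These ratios were examined after the values were seen, and 3 libraries against 3 cannot give an exact permutation p below 0.1, so they are a description.

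Within cultures the ratio moved from input to IP in opposite directions. In D619N it went from 2.47, 1.52 and 1.47 in the inputs of replicates 1, 2 and 3 to 0.472, 0.31 and 0.86 in the IPs, a mean log2 change of -1.82 ± 0.903 (SD, n = 3). In WT-AGO2 the 3 cultures moved by 0.28 ± 0.204 on the same scale, each of them upwards. N359H (1.23 ± 0.637) and G604R (0.65 ± 0.536) also moved upwards in all 3 cultures, and F182del (0.10 ± 0.635) in 2 of 3. The D619N input of replicate 1 rested on 42 reads of miR-25 and 17 of miR-92b. Without that culture the D619N change was seen in both of the others, with log2 changes of -2.29 and -0.78.

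**Figure D3:**
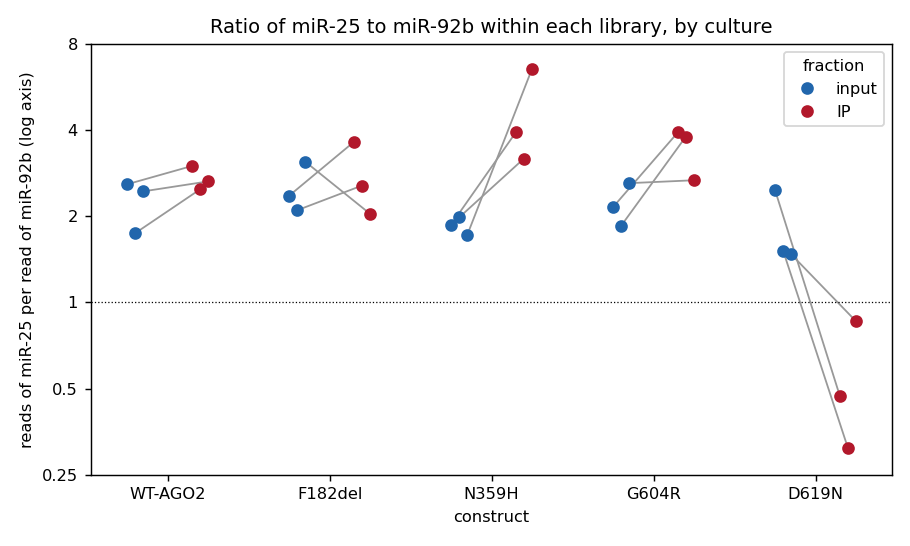
Reads of miR-25 per read of miR-92b (log axis) in each library, by construct; grey lines join the input (blue) and IP (red) library of 1 culture, and the dotted line marks equal reads. The 3 D619N IP libraries are below 1, at 0.31 to 0.86, and the other 12 IP libraries are at 2.04 to 6.56.

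Whether the difference between IP and input itself depended on the variant was tested as an interaction. No member was called for D619N (0 of 6 members, 5 of 127 rows, 3.94%). The interaction was -1.02 for miR-25 (SE 0.46, adjusted p = 0.263) and 1.07 for miR-92b (SE 0.41, adjusted p = 0.231) on the log2 scale, and both had an unadjusted p under 0.05. With limma, no member was called for F182del (1 of 135 rows, 0.741%), N359H (0 of 130 rows, 0%) or G604R (2 of 130 rows, 1.54%), and none of their members had an unadjusted p under 0.05.

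The other variants showed no called member in IP. With limma, 0 of 6 members were called for F182del (8 of 133 rows, 6.02%), 0 of 6 for N359H (0 of 123 rows, 0%) and 0 of 5 for G604R (6 of 123 rows, 4.88%). At an unadjusted p under 0.05 there were 0 members for N359H and G604R and 1 for F182del, miR-19a. It had 2, 3 and 19 reads in F182del against 6, 0 and 0 in WT-AGO2. A row was tested if it reached 1 scaled RPM in at least 2 libraries of a group. miR-19a did so only through F182del, where it is higher, so this p does not show a difference. In the F182del IP miR-92a took 11.5%, 9.98% and 7.94% of mature miRNA reads (9.82% ± 1.80), which overlapped WT-AGO2 by 1 library. In the N359H IP miR-92a took 14.98%, 14.8% and 14.8% (14.9% ± 0.105), within the WT-AGO2 range. In the G604R IP it took 10.5%, 11.3% and 12.3% (11.4% ± 0.883), which overlapped as a share, while its scaled RPM did not overlap (log2 fold change -0.41, SE 0.23, adjusted p = 0.397).

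miR-25 took 3.01% ± 0.843 in F182del, 4.96% ± 0.447 in N359H and 4.15% ± 0.247 in G604R, and miR-92b 1.10% ± 0.178, 1.18% ± 0.405 and 1.22% ± 0.198. Scaled values of miR-25 and of miR-92b overlapped those of WT-AGO2 in each of these 3 variants. Groups did not overlap for 1 of 6 members in F182del (30 of 133 rows, 22.6%), 0 of 6 in N359H (12 of 123 rows, 9.76%) and 2 of 5 in G604R (24 of 123 rows, 19.5%), where the 2 were both rows for miR-92a. In F182del it was miR-19a, which was tested only through its values in F182del. Without replicate 3 of the G604R IP, miR-19b was called lower in G604R (log2 fold change -4.30, adjusted p = 0.0286), but the remaining G604R libraries held 0 reads of it.

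In the inputs no member was called. With limma, 0 of 6 members were called in the input of F182del (0 of 114 rows, 0%), N359H (0 of 106 rows, 0%), G604R (0 of 106 rows, 0%), D619N (0 of 105 rows, 0%) and the empty vector (0 of 105 rows, 0%), each against WT-AGO2. At an unadjusted p under 0.05 there was 1 member for F182del, miR-19b, which had 4 to 6 reads in the F182del inputs, and none for the others. In the D619N input, miR-25 took 5.45%, 2.52% and 2.59% of mature miRNA reads (3.52% ± 1.67) and miR-92b 2.20%, 1.66% and 1.76% (1.88% ± 0.289), within or overlapping the WT-AGO2 input. The fold changes in D619N input were -0.19 for miR-25 (SE 0.29) and 0.14 for miR-92b (SE 0.28) on the log2 scale.

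IP libraries were also compared with the inputs of the same construct, to see which members stood higher in IP than in the lysate. The empty vector, with no tagged AGO2, also had a higher share of miR-92a in IP (23.9% ± 0.594, on 40 to 47 reads) than in input (8.51% ± 2.34). How much of the differences below is such background was not tested. In RPM, miR-92a stood at 17535, 8012 and 2421 in the WT-AGO2 IP and at 399, 214 and 224 in the input, but on RPM as deposited 100 of 126 rows were called, with a median log2 fold change of 3.74. Relative to the other miRNAs, miR-92a was higher in the IP of D619N, where it passed both thresholds (log2 fold change 1.32, SE 0.17, adjusted p = 0.00512). miR-92b passed them as well in D619N (1.31, SE 0.28, adjusted p = 0.0276), but not with the culture as a replicate block (adjusted p = 0.0901). With the second miR-92a row, 3 of 6 members were called in D619N, beside 18 of 103 rows (17.5%).

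miR-92a was also higher relative to other miRNAs in the IP of WT-AGO2 (log2 fold change 0.85, SE 0.24, adjusted p = 0.0438) and of N359H (0.79, SE 0.20, adjusted p = 0.00852), below the fold threshold. miR-25 passed the adjusted p in N359H (0.82, SE 0.21, adjusted p = 0.00939) and not in WT-AGO2 (0.45, SE 0.28, adjusted p = 0.25) or D619N (-0.51, SE 0.30, adjusted p = 0.275). miR-92b stood at 0.17 (SE 0.28, adjusted p = 0.663) in WT-AGO2 and at -0.40 (SE 0.28, adjusted p = 0.29) in N359H. No member was called by limma in WT-AGO2 (0 of 6 members, 15 of 126 rows, 11.9%), F182del (0 of 6 members, 31 of 132 rows, 23.5%), N359H (0 of 6 members, 14 of 120 rows, 11.7%) or G604R (0 of 5 members, 9 of 105 rows, 8.57%). At an unadjusted p under 0.05 there were 2, 0, 3 and 2 members.

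Single libraries moved these counts. Both rows for miR-92a were called in WT-AGO2 without IP replicate 3 (log2 fold change 1.004, adjusted p = 0.0342 for Hsa-Mir-92-P1a_3p). In N359H, both rows and miR-25 were called without IP replicate 3 (1.08 for Hsa-Mir-92-P1a_3p and 1.06 for miR-25), and miR-25 alone without input replicate 1 (1.03). Leaving out the whole N359H culture with the shallow input gave 2 members, miR-25 (1.08, adjusted p = 0.00267) and miR-19b (-3.83, adjusted p = 0.00704), which had 0 reads in both remaining IP libraries. In D619N, the count was 4 without input replicate 1 and without the whole culture, with miR-19a added. That row had 0 reads in all 3 IP libraries and 4 in each of the remaining inputs, and passed the filter only through the inputs. With libraries scaled to their mature miRNA reads, in place of the median ratio, the D619N folds were 0.83 for miR-92a and 0.82 for miR-92b, and neither was called.

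Shares were also compared within cultures. In D619N the log2 ratio of the IP share to the input share was 0.83 ± 0.384 for miR-92a, 0.82 ± 0.592 for miR-92b and -0.998 ± 1.05 for miR-25 (SD, n = 3), with miR-92a and miR-92b higher in IP in 3 of 3 cultures and miR-25 in 0 of 3. In WT-AGO2 these values were 0.61 ± 0.51 for miR-92a, -0.067 ± 0.321 for miR-92b and 0.21 ± 0.239 for miR-25, with 3, 1 and 2 of 3 cultures higher in IP. The Mir-92 family as a whole had a higher share in IP in 13 of the 15 AGO2 cultures.

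The Mir-19 family had a lower share in IP than in input in most cultures. Over the 15 cultures, miR-19b had 3.49 reads per 1000 reads of miR-92a in IP (49 reads against 14046) and 10.4 in input (50 against 4824), although both are cut from the same transcripts. The log2 ratio of miR-19b to miR-92a, each in RPM plus 1, was lower in IP in 11 of 15 cultures, by a mean of -1.84 ± 3.01 (SD; exact two-sided sign-flip permutation test, p = 0.0313). With 0.5 reads added in place of 1 RPM, an alternative chosen after seeing the data, it was lower in 12 of 15, by -1.53 ± 1.42 (exact permutation p = 0.00116). Both forms depend on depth, and miR-19b had no read in 4 of the IP and 3 of the input libraries. In the first, 1 RPM is a smaller part of a read in a shallow library. It also raises ratios most where miR-19b is low in RPM. WT-AGO2 replicate 2 stood at -8.10 in IP and -8.64 in input with nothing added, and at -8.05 and -7.13 with 1 RPM. In the second, a library with no miR-19b read gets a lower ratio the more miR-92a reads it holds. G604R replicate 1 had no miR-19b read in either fraction, yet stood at -9.10 in IP and -6.51 in input. Neither p therefore settles the direction. The share of the family as a whole was lower in IP in 11 of 15 cultures and higher in 3.

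The other guides of the clusters, the Mir-17 family, also had a lower summed share in IP than in input. These 7 rows, which share the primary transcripts of miR-92a, miR-19 and miR-25, made up 0.714% to 1.04% of mature miRNA reads in the WT-AGO2 IP (0.866% ± 0.166) and 1.82% to 2.59% in the input (2.20% ± 0.382). Their summed share was lower in IP in 15 of 15 cultures of AGO2 constructs. Per 1000 reads of the Mir-92 family, these cultures held 8 to 110 reads of the Mir-17 family in IP and 69.8 to 204 in input. The empty vector, with no tagged AGO2, also had a lower summed share in IP (0.338% ± 0.586, on 0, 0 and 2 reads) than in input (2.28% ± 0.826). Its IP libraries held only 171 to 197 mature miRNA reads each. How much of the lower share in the AGO2 constructs is such background was not tested. Row by row, IP against input, 1 of 7 rows was called in WT-AGO2 (11.9% of all rows tested), 2 of 7 in F182del (23.5%), 2 of 7 in N359H (11.7%), 0 of 6 tested in G604R (8.57%) and 1 of 4 tested in D619N (17.5%), each of them lower. With so few rows these counts do not stand apart from the shares over all rows. The 7 rows include both arms of Hsa-Mir-17-P1d, neither marked by an asterisk. Hsa-Mir-17-P1d_3p was not called, with log2 fold changes of 1.07 in WT-AGO2, 1.77 in F182del and -0.31 in N359H.

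Hsa-Mir-17-P4a_5p was called in WT-AGO2 (log2 fold change -2.52, SE 0.43, adjusted p = 0.00654), F182del (-2.32), N359H (-3.69) and D619N (-2.67). Hsa-Mir-17-P1d_5p was called in F182del (-1.65) and N359H (-3.46). For comparison, Hsa-Mir-17-P4a_5p had 14, 6 and 4 reads in the WT-AGO2 IP and 37, 26 and 13 in the input. Between variants and WT-AGO2, none of the 6 or 7 rows tested was called in IP or in input. The summed share in the D619N IP was 0.356% ± 0.175, and Hsa-Mir-17-P4d_5p had 5, 4 and 0 reads there, against 140, 37 and 24 in the WT-AGO2 IP (adjusted p = 0.128).

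**Figure D4:**
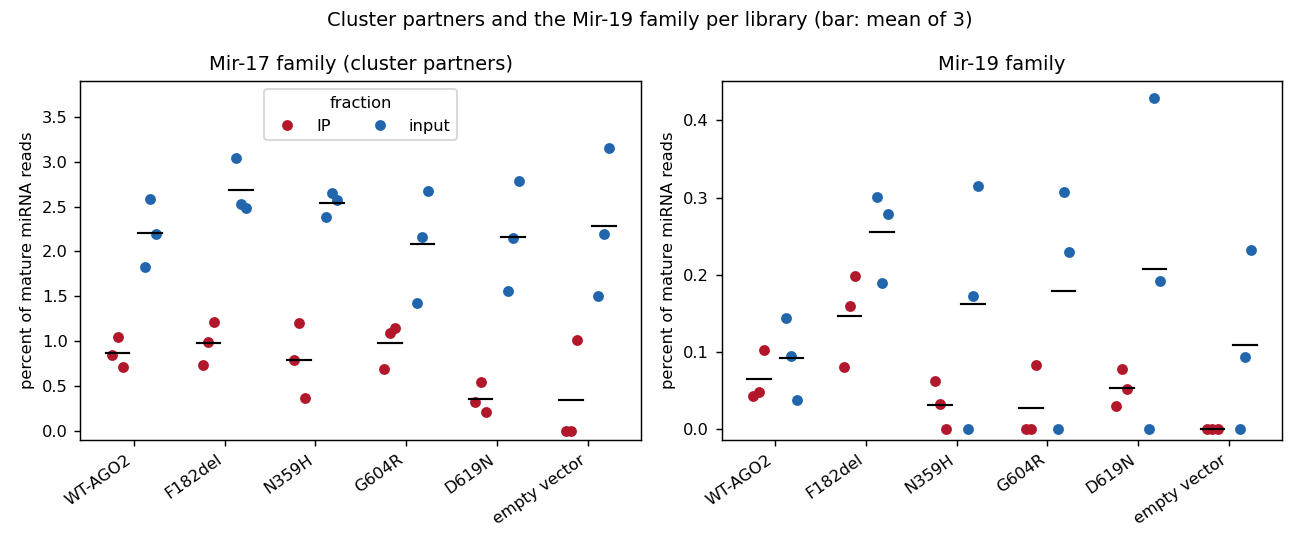
Share of mature miRNA reads (percent) of the 7 Mir-17 rows together (left) and of the Mir-19 family (right) in each of the 36 libraries, by construct, with IP in red and input in blue; bars are means of 3. The Mir-17 sum is lower in IP than in the input of the same culture in all 15 AGO2 cultures, and the Mir-19 shares reach at most 0.43%.

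Passenger strands of 2 members were listed, with at most 2 reads in any input library. Hsa-Mir-92-P2d_5p*, the passenger of miR-92b, had 10, 2 and 4 reads in the D619N IP, 14, 0 and 0 in the WT-AGO2 IP and no read in the D619N inputs. It had 3, 2 and 4 reads in the F182del IP and no read in the F182del inputs. Hsa-Mir-92-P1a_5p*, the passenger of miR-92a, had 15, 2 and 17 reads in the F182del IP, 2, 3 and 2 in the G604R IP and 5, 4 and 0 in the WT-AGO2 IP. The inputs held 0, 0 and 2 reads in F182del, 0 in all 3 of G604R and 2, 0 and 0 in WT-AGO2. The passenger strands passed the filter on low values in these constructs only through the IP libraries, so a difference from input was fixed by the filter, and neither fold nor test is given for it. Neither passenger strand was called between a variant and WT-AGO2 in IP. With 14, 0 and 0 reads in the WT-AGO2 IP, Hsa-Mir-92-P2d_5p* passed the filter there only through the variants, so no p is given for it.

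The empty vector IP is the background control, with no tagged AGO2 to precipitate. miR-92a had 43, 40 and 47 reads there, or 24.6%, 23.4% and 23.9% of mature miRNA reads (23.9% ± 0.594), and ranked 1 in all 3 libraries. Its share in each of them was above that in every IP library of the AGO2 constructs, which reached 20.3%. In RPM it stood at 2385, 832 and 1678, against 1859 to 4717 in the F182del IP, 2079 to 2835 in the G604R IP and 2421 to 17535 in the WT-AGO2 IP. miR-25 had 4, 9 and 2 reads. miR-92b had 0 reads in all 3, which allows a share of up to 1.71%, 1.75% and 1.52%, and its share in the WT-AGO2 IP (1.43%) was below these limits. Both Mir-19 members had 0 reads. The part of this background in the IP libraries of the variants was not tested.

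Among non-members, the patterns most like that of miR-25 over the 10 group means of AGO2 constructs (log2 share of mature miRNA reads) were those of Hsa-Mir-30-P1a_5p (Pearson r = 0.93), Hsa-Mir-191_5p (0.87) and Hsa-Mir-10-P2b_5p (0.86), out of 48 rows above 0 in at least 27 of 30 libraries. For miR-92b they were Hsa-Mir-26-P1_5p and Hsa-Mir-26-P4_5p (0.701559 each) and Hsa-Mir-22-P1b_3p (0.54). With the same r, the Mir-26 rows may hold the same values and are not taken as separate. For miR-92a they were Hsa-Mir-28-P1_3p (0.51), Hsa-Mir-28-P2_3p (0.42) and Hsa-Mir-192-P2_5p (0.39), and for miR-19b Hsa-Mir-378_3p (0.72), Hsa-Let-7-P2c3_5p (0.68) and Hsa-Let-7-P2a2_5p (0.68). It could not be computed for miR-19a, whose mean was 0 in 2 groups. miR-25 and miR-92b had r = -0.70 with each other. These values share libraries, totals and the D619N IP group, and are a description over 10 points.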

How the data were processed

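Small RNA libraries (TruSeq, 36-base single-end reads) were made from input and anti-HA IP of HEK293T cells, 3 replicates in each of 12 conditions. The authors processed the reads with sRNAbench (mean quality score, Phred threshold of 20) and MirGeneDB, and deposited RPM, reads relative to the total reads of a library, for 135 mature miRNAs. The genome build in the submitters' processing notes is GRCh38. The label's terms minExpr1 and RCadj are not explained, and how reads of identical or near-identical paralogues were shared out was not given in the sources used here. In each library the largest step of which all deposited RPM values are whole multiples (100% of values, tolerance 1e-06) was taken as 1 read, so reads and totals are the smallest that fit the values.

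Comparisons used limma 3.58.1 in R 4.3.3 (lmFit, then eBayes with a mean-variance trend). Libraries were first scaled by the median of ratios, taken over rows above 0 in all libraries of the fit, and 1 RPM was added before taking log2. A row was tested if it reached 1 scaled RPM in at least 2 libraries of a group of 3, and fits held only the groups compared. Replicate number was no block in these fits. IP and input of a number are from 1 lysate, so the numbers pair them. Between a variant and WT-AGO2 the deviations of same-numbered libraries correlated above 0.1 in all 3 pairs only for F182del in IP (0.11 to 0.34) and for F182del, N359H and the empty vector in input. The ratio of miR-19b to miR-92a was tested by an exact sign-flip permutation over cultures, and the empty vector IP was described with no test. Alternatives were another pseudocount, no filter, other scalings, identical rows collapsed, a replicate block, all AGO2 groups in 1 fit and each replicate left out.

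Members, cluster partners and passenger strands were chosen with earlier results of these data known. Named are all members, those partners and passenger strands that were called in any comparison, and per member the 3 most similar rows. Hsa-Mir-17-P4d_5p, Hsa-Mir-17-P1d_3p and the ratios of miR-25 to miR-92b and miR-92a were named after their values were seen.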

Additional observations from a re-analysis of the deposited data

Results flagged for a closer look

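For Hsa-Mir-17-P1c_5p, the interaction of fraction and D619N was 2.71 on the log2 scale (limma, adjusted p = 0.0284). It rested on 2, 0 and 0 reads in the WT-AGO2 IP and 3, 2 and 2 in the WT-AGO2 input, with 0 reads in all 6 D619N libraries. It passed the filter on low values through WT-AGO2 alone, so the value does not show that D619N differed.

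In other cases all 3 cultures of one construct moved from input to IP in one direction and all 3 of another in the opposite direction. These differences were not tested. For the log2 ratio of miR-25 to miR-92b, the change from input to IP in D619N was lower than in WT-AGO2 by a difference of -2.10, than in N359H by -3.05 and than in G604R by -2.46. For the share of miR-25, the mean log2 change was -0.31 in F182del and -0.998 in D619N against 0.60 in N359H, which gives differences of -0.92 and -1.60. For the share of miR-92b, it was -0.41 in F182del and 0.82 in D619N, a difference of -1.23. Groups of 3 were not tested for single libraries far from the others.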

How the results depend on the processing

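Of the alternatives, scaling and single libraries mattered most. For D619N against WT-AGO2 in IP, the count of 2 called members became 0 on RPM as deposited, 1 with the replicate block (miR-25 adjusted p = 0.0608, miR-92b 0.0368), 1 with all 5 AGO2 groups in 1 fit (miR-25 at -0.94, adjusted p = 0.0558), and 0 to 2 with 1 library left out. Over 13 alternatives the log2 fold change was -1.34 to -0.63 for miR-25 (adjusted p 0.0138 to 0.79) and 1.10 to 1.80 for miR-92b (0.00436 to 0.274), with the direction kept in each. For IP against input, RPM as deposited gave 5 called members in WT-AGO2, 6 in F182del, 4 in N359H and 0 in D619N, where the folds were larger (4.18 for miR-92a, adjusted p = 0.0562, and 4.15 for miR-92b, adjusted p = 0.0593), and scaling to mature miRNA reads gave 0 in D619N. With 1 library left out the counts were 0 to 2 in WT-AGO2, 0 to 3 in N359H and 3 to 4 in D619N, and 0 to 1 for G604R against WT-AGO2 in IP. Without the culture with the shallow input, an alternative chosen after seeing the data, the count was 2 in N359H. The replicate block left the count at 0 in each comparison where it was 0, and at 2 of 3 for IP against input of D619N. The other counts stayed at 0 under each alternative run.

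Folds not called in the reported fits turned sign for miR-92b in IP against input of WT-AGO2 (-0.067 with scaling to mature miRNA reads, and -0.15 to 0.32 with 1 library left out, below 0 without input replicate 3) and of N359H (3.13 on RPM as deposited, and -0.63 to 0.13 with 1 library left out, above 0 without IP replicate 3), for miR-25 in IP against input of D619N (2.34 on RPM as deposited) and for miR-92a in the interaction with D619N (-0.53 on RPM as deposited). On RPM as deposited, the median log2 fold change of all rows in IP against input was 3.74 in WT-AGO2 and 2.81 in D619N, against 0.28 and 0.06 after scaling. The cause of the other changes was not tested. The ratio of miR-19b to miR-92a kept its direction, with a mean of -2.80, without 3 cultures under 200000 input reads. At a pseudocount of 10 RPM the mean was -2.66. That setting cannot tell the direction, since miR-19b reached at most 6.28 RPM in any input library. The 1 RPM added for the mean of -2.80 leans the same way, to a lesser degree. Shares with all rows in the total differed by less than 1 SD in 17 of 24 family values. A count model on recovered reads was not run, because no library held the 100 low values needed to establish that these are unadjusted counts. Depth limits the Mir-19 members most, at up to 19 reads in a library.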

Other observations

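The 2 rows for miR-92a, which share the mature sequence, differed by a part of the reads that was not the same in both fractions. The second row held fewer reads than the first by 1.63% of the reads in the 15 IP libraries of AGO2 constructs and by 4.66% in the 15 inputs. The difference was a smaller part of the reads in IP in 13 of 15 cultures, with medians of 2.07% and 5.05%. How reads that reach both loci were shared out is not described, and the pattern was noticed after the values were seen and has no test.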
